A study of Mus musculus with 14 samples.

Results

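The genes described here are 9 genes of hepatic glucose production and breakdown: Pck1, G6pc, Fbp1, Slc37a4, Pklr, Pfkfb1, Pfkfb3, Slc2a2 and Pcx. They were chosen by symbol, without regard to their measured values, and all 9 were found in each of the 3 expression tables, which hold 23404 and 20337 genes for bulk liver and 21911 genes for liver nuclei. The study measured mouse liver RNA in 12 bulk libraries and 2 single-nucleus libraries. In the NASH table, 3 libraries are labelled Ms4a7 KO and 3 wild type, and all 6 are labelled as mice kept for 22 weeks on a diet that causes fatty, inflamed liver (nonalcoholic steatohepatitis, NASH). In the injection table, 3 libraries are labelled LD, for lipid droplets injected into the tail vein on 6 consecutive days, and 3 are labelled PBS, the saline given the same way, and all 6 are labelled as wild type on chow. The nuclei come from livers of mice on the NASH diet for 22 weeks, with 1 library labelled Ms4a7 KO and 1 labelled wild type, each pooling 3 livers. The labels do not say whether the KO is whole-body or restricted to a cell type, and they give no age or strain.

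The liver makes glucose in the fasted state by running the pathway from pyruvate backwards around the irreversible steps of glycolysis, and breaks glucose down after a meal. Pyruvate carboxylase (Pcx) and the cytosolic phosphoenolpyruvate carboxykinase (Pck1) bypass pyruvate kinase (Pklr), fructose bisphosphatase (Fbp1) opposes phosphofructokinase, and the glucose-6-phosphatase catalytic subunit (G6pc) with its transporter Slc37a4 frees the glucose at the end. Pfkfb1 and Pfkfb3 set the level of a regulatory fructose bisphosphate, other than the one that Fbp1 cleaves. This regulator activates phosphofructokinase and inhibits Fbp1. Slc2a2 (GLUT2) carries glucose across the hepatocyte membrane. Glucose production is known as a periportal function of the liver lobule.

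Promoters of 3 of these genes are shown as textbook targets of different metabolic signals: Pck1, called in bulk liver below, of cAMP, Pklr, highest in its nuclear ratio below, of glucose, and G6pc, the pathway partner of Pck1 that was not called, of insulin. The sequences are RefSeq promoter stretches on build GRCm38.p6, all on the plus strand, and each stretch ends where an exon begins in the GENCODE annotation. Pck1 is shown for chr2:173152823-173153047, with the letters ACGTCA of the cAMP response element core in capitals, starting 91 bases upstream of the RefSeq start. G6pc is shown for chr11:101367466-101367560, with the letters TGTTTTG of an insulin response sequence core in capitals, starting 174 bases upstream. Pklr is shown for chr3:89136373-89136571, with a match to the carbohydrate response element in capitals, starting 170 bases upstream.
Pck1: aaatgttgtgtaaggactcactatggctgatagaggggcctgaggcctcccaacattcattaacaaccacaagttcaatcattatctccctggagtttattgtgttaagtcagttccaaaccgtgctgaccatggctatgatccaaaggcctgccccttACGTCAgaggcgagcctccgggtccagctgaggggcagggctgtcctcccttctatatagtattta
G6pc: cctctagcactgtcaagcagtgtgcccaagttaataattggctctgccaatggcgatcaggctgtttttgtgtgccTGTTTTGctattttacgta
Pklr: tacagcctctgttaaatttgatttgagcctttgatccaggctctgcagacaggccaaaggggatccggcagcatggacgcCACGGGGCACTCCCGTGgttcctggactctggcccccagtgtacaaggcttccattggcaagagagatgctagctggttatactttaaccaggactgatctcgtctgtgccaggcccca
Searched on both strands in the 250 bases before each RefSeq start, ACGTCA stood in 6.47% of 32851 windows, TGTTTTG in 5.56% and the carbohydrate response element in 0.0974%. Among the 9 genes, which have 17 such windows, ACGTCA was found for Pck1, Pfkfb3 and Slc37a4, TGTTTTG for G6pc alone and the carbohydrate response element for Pklr alone. These are matches of letters in a window and no measure of binding.

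Ms4a7, the gene named in the KO labels, went against the labels in bulk liver. It stood at 102, 117 and 136 normalized counts in the libraries labelled KO, against 9.70, 25.8 and 23.3 in those labelled wild type. In the injection table it stood at 10.5, 7.60 and 9.32 in the libraries labelled LD, against 62.2, 84.7 and 163 in those labelled PBS. The NASH table also carries a header line that reads Treated and Untreated, and the submitters' names of the tables point to the other experiment. In macrophage-like nuclei Ms4a7 was at 0.622 UMIs per 10000 in nuclei labelled KO and 1.25 in nuclei labelled wild type. The 5 lipid-associated macrophage markers summed to 1016 to 2334 normalized counts over the libraries of the NASH table and to 7033 to 21917 over those of the injection table, which were scaled separately. Every direction below, and each diet and genotype, is that of the labels. Recovered gene reads ran from 21945394 to 23126164 per library in the NASH table and from 39318264 to 41346464 in the injection table. All 9 genes passed the filter on low values in both tables. The labels do not name separate animals for the replicates, so p-values measure the spread between these libraries. In bulk liver, fewer cells of a type and less RNA per cell cannot be told apart.

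In libraries labelled KO, Pck1 and Pfkfb3 were higher than in libraries labelled wild type, and the other 7 genes did not pass the test. A call here is an adjusted p under 0.05 by limma with Benjamini-Hochberg adjustment over 15827 genes, and 2 of 9 genes rose and 0 fell, against 3.02% of all genes tested that rose and 0.701% that fell (3.72% called in all). The same 2 genes were called by edgeR and by DESeq2 on the recovered reads, and 2 had an unadjusted limma p under 0.05. Of all 15827 genes tested, edgeR called 648, DESeq2 called 1241 and 2960 had an unadjusted limma p under 0.05. Pck1 and Pfkfb3 were also the only ones of the 9 whose groups did not overlap, against 24.2% of all genes tested (12.4% higher and 11.7% lower). The median log2 change of the 9 genes was -0.15, beside -0.02 over all genes tested. The values of the 9 genes by library are plotted next.

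**Figure D1:**
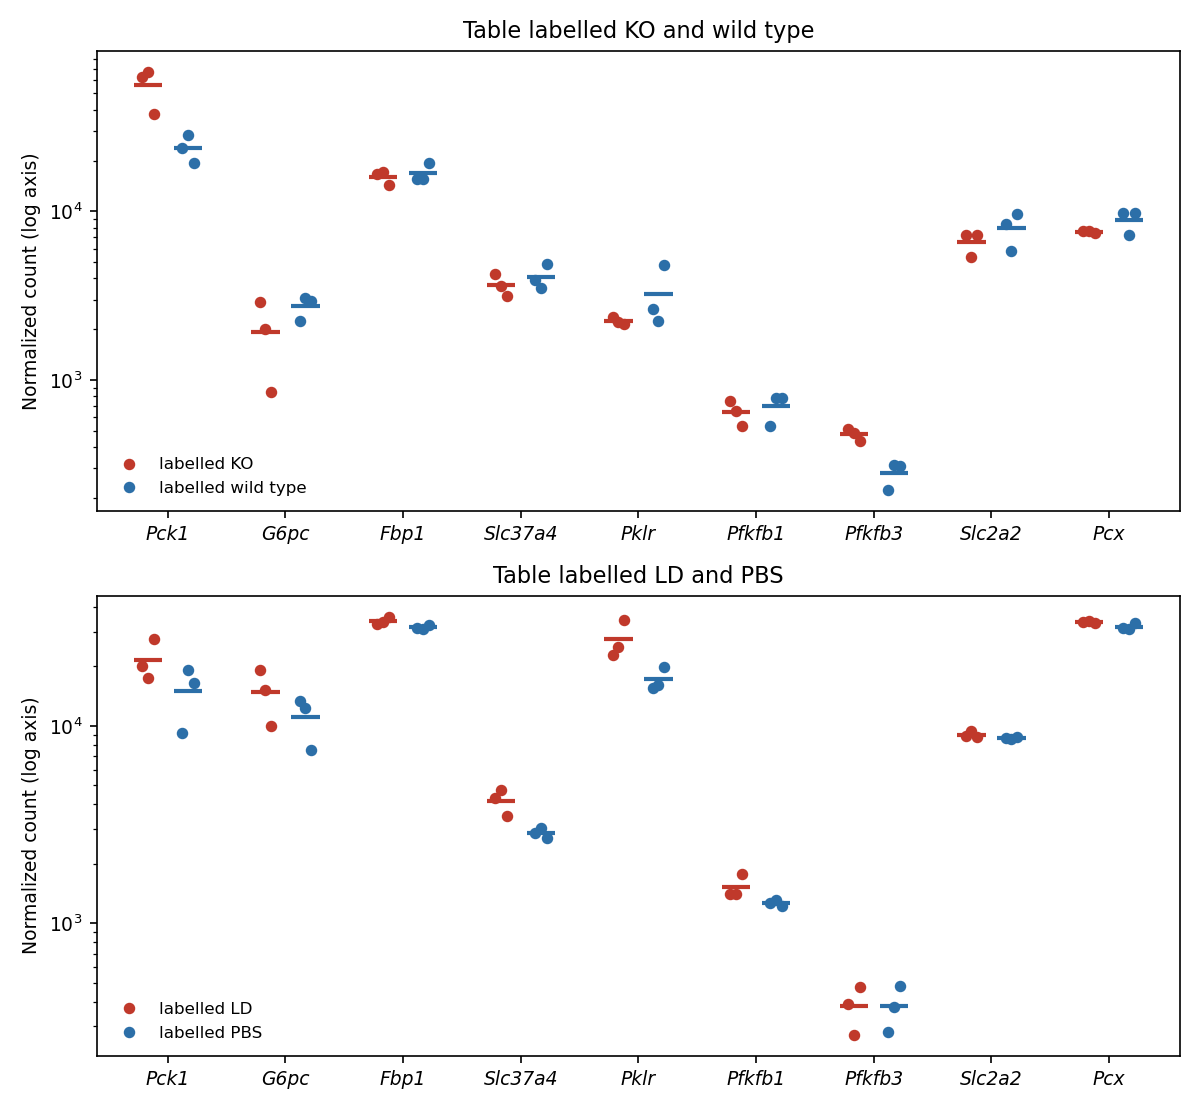
Normalized counts (log axis) of the 9 glucose genes in each bulk library, as points, with the group mean as a bar. The upper panel shows libraries labelled KO (red) and wild type (blue), where Pck1 and Pfkfb3 do not overlap between groups, and the lower panel libraries labelled LD (red) and PBS (blue), where Slc37a4 lies between 3511 and 4744 in LD and between 2717 and 3026 in PBS.

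Pck1 (chromosome 2, 173153048 to 173159273, plus strand), which turns oxaloacetate into phosphoenolpyruvate and whose promoter is shown above, had 62427, 67280 and 37502 normalized counts in libraries labelled KO, against 23625, 28192 and 19317 in those labelled wild type. The groups did not overlap, although replicate 3 of the KO label was well below its fellows. Its log2 change was 1.20 ± 0.25 (SE, n = 3 each; 95% interval 0.63 to 1.78; limma adjusted p = 0.0422). In the authors' deposited table Pck1 has a log2 fold change of 1.23 with an adjusted p of 1.61e-06. The call rests on single libraries: it held when KO replicate 3 was left out (adjusted p = 0.0251) and was lost without any of the other 5 (adjusted p = 0.0668 to 0.123), with log2 changes of 1.05 to 1.47 over all 6 omissions.

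Pcx (chromosome 19, 4510472 to 4621752, plus strand), the mitochondrial enzyme that supplies oxaloacetate to Pck1, had 7595, 7604 and 7423 normalized counts in libraries labelled KO, against 9742, 7284 and 9725 in those labelled wild type. The groups overlapped through wild type replicate 2, and the log2 change of -0.23 ± 0.13 did not pass (limma adjusted p = 0.395, 95% interval -0.52 to 0.07). Fbp1 (chromosome 13, 62864753 to 62888282, minus strand), which removes a phosphate from fructose bisphosphate, had 16673, 17060 and 14290 normalized counts in libraries labelled KO, against 15519, 15488 and 19318 in those labelled wild type. The groups overlapped in part, with a log2 change of -0.06 ± 0.13 (limma adjusted p = 0.843).

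G6pc (chromosome 11, 101367561 to 101377903, plus strand), the enzyme that releases free glucose, had the widest spread of the 9 genes, relative to its mean, in the libraries labelled KO. Its normalized counts were 2905, 2014 and 846 in libraries labelled KO, against 2244, 3046 and 2959 in those labelled wild type. KO replicate 3 was again the low library, the groups overlapped, and the log2 change of -0.68 ± 0.40 had a 95% interval of -1.61 to 0.26 (limma adjusted p = 0.426). Pck1 and G6pc, known as fasting-induced partners of the same pathway, thus had log2 changes of 1.20 and -0.68, and only that of Pck1 passed. The G6pc change was -0.17 without KO replicate 3 and ran from -1.06 to -0.17 over the 6 omissions. Slc37a4 (chromosome 9, 44396852 to 44402968, plus strand), which carries glucose 6-phosphate to G6pc inside the endoplasmic reticulum, had 4247, 3625 and 3153 normalized counts in libraries labelled KO, against 3906, 3490 and 4882 in those labelled wild type, a log2 change of -0.15 ± 0.15 (limma adjusted p = 0.669). Slc2a2 (chromosome 3, 28697903 to 28731359, plus strand), the glucose carrier, had 7277, 5364 and 7202 normalized counts in libraries labelled KO, against 8397, 5789 and 9610 in those labelled wild type. The groups of both transporters overlapped, and the change of Slc2a2 was -0.24 ± 0.20 on the log2 scale (limma adjusted p = 0.592).

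Pfkfb3 (chromosome 2, 11471433 to 11554077, minus strand), the kinase-active isoform that drives glycolysis in many cell types, had 514, 484 and 432 normalized counts in libraries labelled KO, against 223, 315 and 309 in those labelled wild type. The groups did not overlap, and the log2 change was 0.77 ± 0.16 (SE, n = 3 each; 95% interval 0.40 to 1.13; limma adjusted p = 0.0433). The call was lost on leaving out any of the 6 libraries, with adjusted p from 0.0653 to 0.130. Pfkfb1 (chromosome X, 150588229 to 150643878, plus strand), the hepatic isoform of the same enzyme, had 746, 651 and 530 normalized counts in libraries labelled KO, against 537, 780 and 785 in those labelled wild type. Its groups overlapped, with a log2 change of -0.12 ± 0.19 (limma adjusted p = 0.793). Pklr (chromosome 3, 89136142 to 89146784, plus strand), the liver pyruvate kinase that closes glycolysis, had 2362, 2201 and 2155 normalized counts in libraries labelled KO, against 2626, 2247 and 4833 in those labelled wild type. Wild type replicate 3 stood apart at the high end, and the log2 change of -0.45 ± 0.26 did not pass (limma adjusted p = 0.406).

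Markers of other cell types moved with these groups. Of 7 Kupffer cell and macrophage markers, 5 rose, and their summed normalized counts were 21836 to 40012 in libraries labelled KO, against 3539 to 7143 in those labelled wild type. None of 8 hepatocyte markers was called, with sums of 2027110 to 2490810 in libraries labelled KO and 1942190 to 2204690 in those labelled wild type. Of 2 neutrophil markers tested 1 rose, and the 5 listed summed to 267 to 636 normalized counts in libraries labelled KO and 67.9 to 111 in those labelled wild type. Of 5 B or plasma cell markers tested 1 rose, as did 1 of 3 lipid-associated macrophage markers, and 6 cholangiocyte markers, none called, summed to 912 to 1635 in libraries labelled KO and 458 to 762 in those labelled wild type. Of 6 periportal markers 1 rose, and none of 7 pericentral markers was called, with sums of 220027 to 261932 in libraries labelled KO and 267523 to 277514 in those labelled wild type. The part of these markers in the rises of Pfkfb3 and Pck1 was not tested. Per kilobase of exon, mean levels in libraries labelled KO ran in the order Pck1 (16254 ± 4659, SD, n = 3), Fbp1 (9405 ± 881), Pcx (1587 ± 21.4), Slc37a4 (1286 ± 192), Slc2a2 (1149 ± 188), G6pc (796 ± 428), Pklr (692 ± 33.5), Pfkfb1 (160 ± 26.9) and Pfkfb3 (63.0 ± 5.47). Neighbours from Slc37a4 to Pklr in that order overlapped within 1 SD. In libraries labelled wild type Fbp1 led with 9856 ± 1294 per kilobase, Pck1 followed with 6915 ± 1294, neighbours from Pcx to Pklr overlapped within 1 SD, and Pfkfb3 was lowest with 37.3 ± 6.79.

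**Figure D2:**
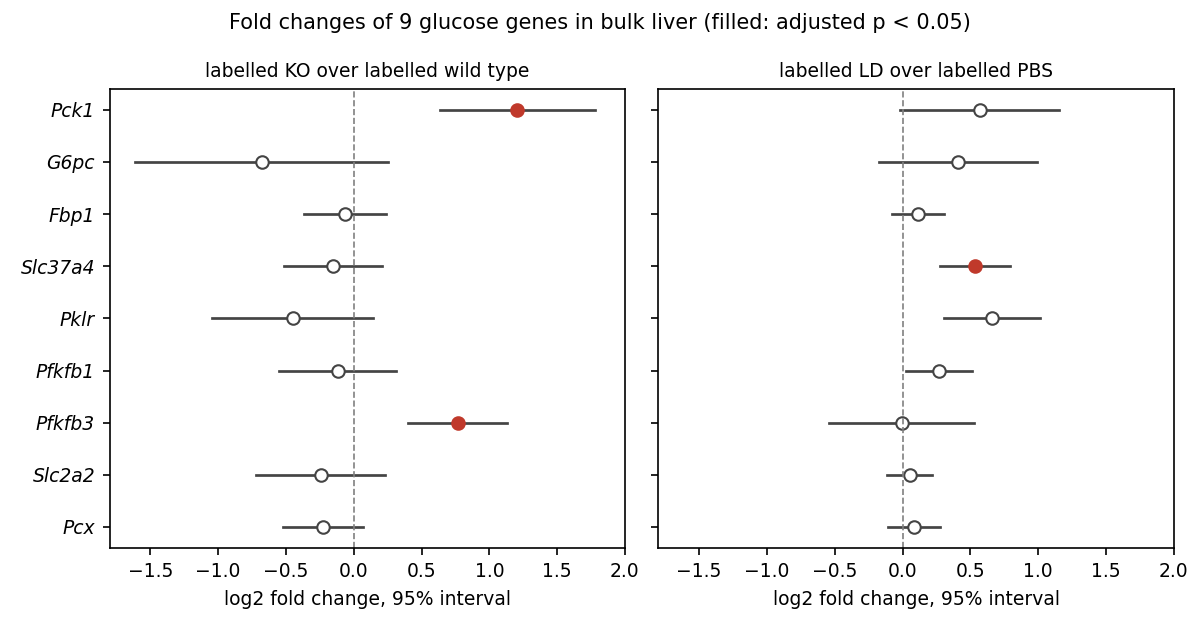
Log2 fold changes (points) with 95% intervals (lines) of the 9 genes, for libraries labelled KO over wild type (left) and LD over PBS (right). Filled red points passed the adjusted p threshold of 0.05: Pck1 and Pfkfb3 on the left, with log2 changes of 1.20 and 0.77, and Slc37a4 on the right, with 0.53.

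Of the other 118 glucose genes in 6 lists, 115 were tested and 7 called in libraries labelled KO, 6.09% against 3.72% of all genes tested: Pkm, Hk2, Pfkfb4, Slc2a6 and Nr0b2 rose, and Onecut1 and Gpd1 fell. Among 20 glycolytic enzymes tested, 3 rose, 0 fell and 17 did not pass. Pkm, the pyruvate kinase of non-hepatocyte cells, had 554, 931 and 806 normalized counts in libraries labelled KO, against 181, 252 and 323 in those labelled wild type, a log2 change of 1.60 ± 0.25 (limma adjusted p = 0.0195). Hk2, an inducible hexokinase, rose by 1.47 ± 0.26 on the log2 scale (limma adjusted p = 0.0265), and Pfkfb4, another isoform of the Pfkfb enzymes, by 1.86 ± 0.35 (limma adjusted p = 0.0354). None of the 3 overlapped between groups. Leaving out 1 library, Pkm lost its call without KO replicate 2, KO replicate 3 or wild type replicate 2, Hk2 kept it only without KO replicate 1 and Pfkfb4 only without wild type replicate 3, with adjusted p up to 0.125.

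Slc2a6, a hexose carrier, was the only one of 12 hexose transporters that rose, and 0 fell. It had 71.3, 168 and 149 normalized counts in libraries labelled KO, against 1.21, 1.29 and 2.45 in those labelled wild type, which are 4 recovered reads in all. The ratio was 78.6 with a 95% counting interval of 30.4 to 290.2 (exact, counting error only), and the limma adjusted p was 0.00202, at most 0.0190 on leaving out any library. Its fitted log2 change of 5.56 ± 0.42 depends on the pseudocount and was 3.50 with a pseudocount of 10.

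Among 34 regulators, 1 rose, 1 fell and 32 did not pass. Onecut1, a hepatocyte transcription factor, had 86.0, 118 and 344 normalized counts in libraries labelled KO, against 877, 761 and 875 in those labelled wild type, a log2 change of -2.45 ± 0.45 (limma adjusted p = 0.0313). Nr0b2, the bile acid-induced corepressor SHP, rose by 0.86 ± 0.15 on the log2 scale (limma adjusted p = 0.0307). Leaving out 1 library, Onecut1 kept its call only without KO replicate 3 and Nr0b2 only without wild type replicate 1, with adjusted p up to 0.101. Of 19 substrate supply genes, Gpd1, the glycerol phosphate dehydrogenase, fell by 0.55 ± 0.11 on the log2 scale (limma adjusted p = 0.0439), and 18 did not pass. The call of Gpd1 was not made by edgeR (adjusted p = 0.0531) or with quantile normalization (0.0504), and leaving out 1 library it held only without KO replicate 1 (0.0330, otherwise up to 0.132). None of 13 pyruvate fate genes and none of 17 glycogen and fructose genes was called by limma or edgeR. Of these, 5 and 1 had an unadjusted limma p under 0.05, as did 2960 of all 15827 genes tested. DESeq2 called 1 and 1 of them, and 1241 of all genes tested. List medians ran from -0.22 for pyruvate fate to 0.17 for hexose transporters, beside -0.02 over all genes tested. Gckr, the mitochondrial Pck2, the ubiquitous G6pc3 and the coactivator Ppargc1a had log2 changes of -0.17, -0.22, -0.23 and -0.15, none past the threshold (limma adjusted p = 0.315 to 0.743).

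**Figure D3:**
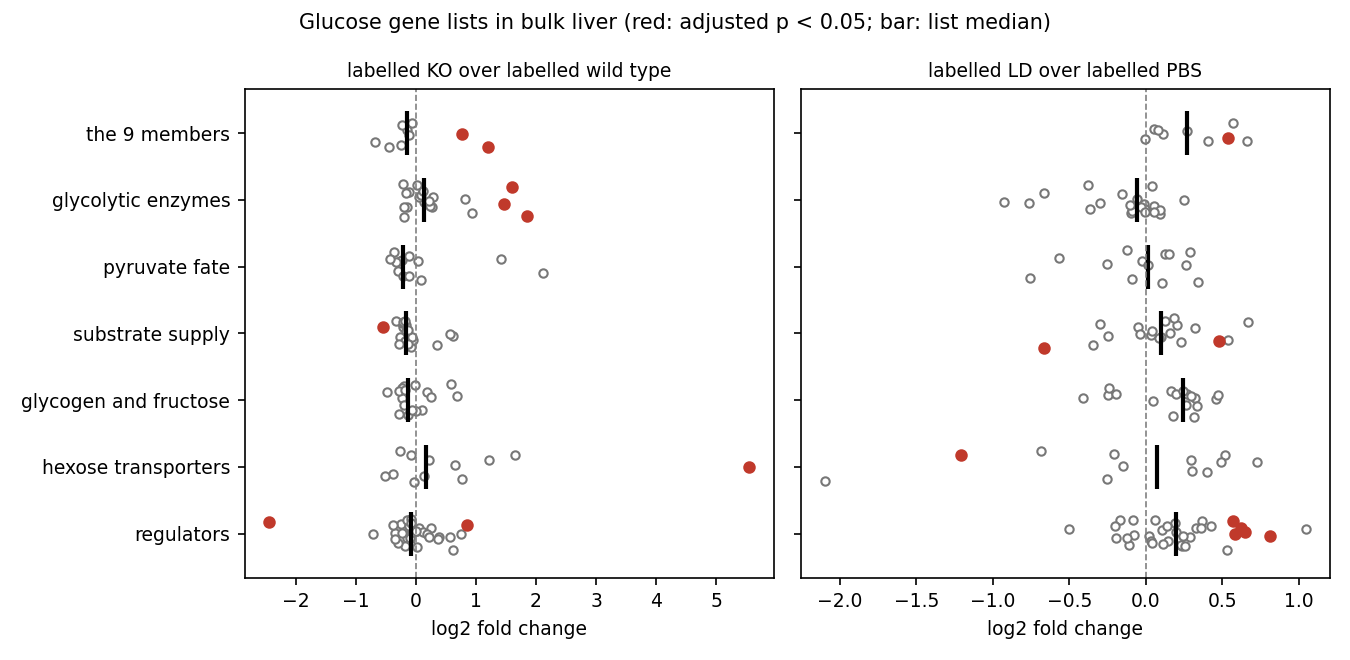
Log2 fold changes of single genes (points) in the 9 glucose genes and 6 lists of other glucose genes, for libraries labelled KO over wild type (left) and LD over PBS (right). Red points passed the adjusted p threshold of 0.05 and black bars are list medians. Slc2a6 at 5.56 and Onecut1 at -2.45 lie farthest out on the left, and 5 of 34 regulators are red on the right.

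In libraries labelled LD, Slc37a4 was higher than in libraries labelled PBS and Pklr just missed the threshold, while 0 genes fell. With limma and Benjamini-Hochberg adjustment over 14900 genes, 1 of 9 genes rose, against 1.95% of all genes tested that rose and 2.21% that fell (4.16% called in all). Without a threshold, 5 of 9 genes (Fbp1, Slc37a4, Pklr, Pfkfb1 and Pcx) were higher in every library labelled LD than in any labelled PBS, as were 12.6% of all genes tested (25.4% did not overlap in either direction). The median log2 change of the 9 genes was 0.27, beside 0.00 over all genes tested, 0.28 over 8 hepatocyte markers, 0.39 over 6 periportal and 0.50 over 7 pericentral markers, and 3 had an unadjusted p under 0.05. By edgeR 1 gene was called and by DESeq2 2. Of all 14900 genes tested, edgeR called 603, DESeq2 called 1222 and 2933 had an unadjusted limma p under 0.05.

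Slc37a4 had 4300, 4744 and 3511 normalized counts in libraries labelled LD, against 2864, 3026 and 2717 in those labelled PBS. The groups did not overlap, with LD replicate 3 the lowest of its group. The log2 change was 0.53 ± 0.11 (SE, n = 3 each; 95% interval 0.28 to 0.79; limma adjusted p = 0.0352), and the authors' deposited table gives 0.54 with an adjusted p of 0.00112. The call strengthened without LD replicate 3 (adjusted p = 0.00242), was lost without any of the other 5 libraries (adjusted p = 0.0844 to 0.140), and was lost with quantile normalization (adjusted p = 0.0779).

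Pklr, whose promoter with the carbohydrate response element is shown above, had 22823, 25220 and 34265 normalized counts in libraries labelled LD, against 15647, 16038 and 19963 in those labelled PBS. The groups did not overlap, and replicate 3 was the high library in both groups. The log2 change of 0.66 ± 0.16 had a 95% interval of 0.30 to 1.02 and missed the threshold (limma adjusted p = 0.0531). It was past the threshold with DESeq2 (adjusted p = 0.00106), without the filter on low values (adjusted p = 0.0472) and without LD replicate 3 (adjusted p = 0.0354), but not with edgeR (adjusted p = 0.0564), with quantile normalization (log2 change 0.44, adjusted p = 0.175) or without any of the other 5 libraries (adjusted p = 0.0617 to 0.195). In the authors' deposited table Pklr has a log2 fold change of 0.67 with an adjusted p of 0.000762.

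The other 7 genes did not pass. Pck1 had 20071, 17399 and 27426 normalized counts in libraries labelled LD, against 9236, 19192 and 16581 in those labelled PBS. PBS replicate 1 was the low library, the groups overlapped, and the log2 change of 0.57 ± 0.26 had a 95% interval of -0.02 to 1.15 (limma adjusted p = 0.267). G6pc had 19253, 15281 and 10022 normalized counts in libraries labelled LD, against 13393, 12391 and 7581 in those labelled PBS. Replicate 3 was lowest in both groups, the groups overlapped, and the log2 change was 0.41 ± 0.26 (limma adjusted p = 0.431).

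Pfkfb1 had 1411, 1412 and 1779 normalized counts in libraries labelled LD, against 1263, 1317 and 1220 in those labelled PBS, a log2 change of 0.27 ± 0.11 with no overlap (limma adjusted p = 0.214). Fbp1 had 32952, 33645 and 35819 normalized counts in libraries labelled LD, against 31155, 30970 and 32462 in those labelled PBS (log2 change 0.11 ± 0.09, limma adjusted p = 0.517). Both genes were higher in all libraries labelled LD, by small margins. Pcx, at 33544, 34100 and 33230 in libraries labelled LD and 31214, 30896 and 33209 in those labelled PBS, also did not overlap, with a log2 change of 0.08 ± 0.08 (limma adjusted p = 0.650). The signs of Fbp1, Pcx and Slc2a2 turned negative with quantile normalization (-0.07, -0.14 and -0.07). Slc2a2 had 8912, 9398 and 8739 normalized counts in libraries labelled LD, against 8662, 8590 and 8827 in those labelled PBS, a log2 change of 0.05 ± 0.07 (limma adjusted p = 0.755). Pfkfb3 had 389, 272 and 476 normalized counts in libraries labelled LD, against 282, 379 and 479 in those labelled PBS, with a log2 change of -0.01 ± 0.24 (limma adjusted p = 0.993). Both groups of Slc2a2 and of Pfkfb3 overlapped.

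Markers moved in the injection table too. Of 5 lipid-associated macrophage markers, 4 fell, with sums of 7033 to 10312 normalized counts in libraries labelled LD and 15297 to 21917 in those labelled PBS, and 3 of 6 cholangiocyte and 3 of 6 stellate cell markers fell. None of 8 hepatocyte markers was called, with sums of 4139120 to 4472230 in libraries labelled LD and 3319700 to 4167150 in those labelled PBS. Of 7 pericentral markers 2 rose, with sums of 414859 to 450421 in libraries labelled LD and 259873 to 355217 in those labelled PBS. The part of these markers in the Slc37a4 rise was not tested. Per kilobase of exon, Fbp1 led with 20058 ± 879 in libraries labelled LD and 18525 ± 478 in those labelled PBS (SD, n = 3 each). In libraries labelled LD, Pklr (8478 ± 1865), Pcx (7074 ± 92.7), Pck1 (6309 ± 1514) and G6pc (6152 ± 1918) overlapped within 1 SD of their neighbours. In libraries labelled PBS, Pcx (6685 ± 264) stood above Pklr (5320 ± 738), which overlapped with G6pc (4607 ± 1287), as did G6pc with Pck1 (4375 ± 1505). Slc2a2, Slc37a4, Pfkfb1 and Pfkfb3 followed in both groups, with Pfkfb3 at 50.2 ± 13.5 in libraries labelled LD and 50.2 ± 13.04 in those labelled PBS.

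Among the other glucose genes, 5 of 34 regulators rose in libraries labelled LD, 0 fell and 29 did not pass, where 1.95% of all genes tested rose and 2.21% fell. This is the longest of the 6 lists, over which 8 of 116 genes tested were called (6.90%, against 4.16% of all genes). Mlxipl (ChREBP), the glucose-sensing factor known to bind the carbohydrate response element of Pklr, had 20121, 20074 and 20016 normalized counts in libraries labelled LD, against 13311, 14105 and 13186 in those labelled PBS. The libraries were tight within each group, and the log2 change was 0.57 ± 0.08 (limma adjusted p = 0.00587, at most 0.0410 without any 1 library). Klf15, a fasting-responsive factor of gluconeogenesis, had 6057, 5948 and 6348 normalized counts in libraries labelled LD, against 3505, 3753 and 3212 in those labelled PBS, a log2 change of 0.81 ± 0.08 (limma adjusted p = 0.00293, at most 0.0166 without any 1 library). Srebf1, which drives lipogenesis and responds to insulin, rose by 0.65 ± 0.13, the hepatocyte factor Foxa2 by 0.62 ± 0.11 and the insulin-restrained factor Foxo3 by 0.58 ± 0.10 on the log2 scale (limma adjusted p = 0.0264, 0.0175 and 0.0142). Leaving out 1 library, Srebf1 kept its call only without LD replicate 3, Foxa2 only without LD replicate 3 or PBS replicate 3, and Foxo3 lost its call without LD replicate 1 or PBS replicate 2, with adjusted p up to 0.110. With quantile normalization Srebf1 lost its call (adjusted p = 0.121).

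Of 19 substrate supply genes in the injection table, Gpt, the alanine transaminase that supplies pyruvate, rose by 0.48 ± 0.10 on the log2 scale (limma adjusted p = 0.0370), Pck2 fell by 0.66 ± 0.16 (limma adjusted p = 0.0490) and 17 did not pass. Slc5a1, a sodium-coupled glucose carrier, fell by 1.21 ± 0.24 on the log2 scale (limma adjusted p = 0.0285), and 11 of 12 hexose transporters did not pass. Leaving out 1 library, Pck2 and Slc5a1 kept their calls only without LD replicate 3 and Gpt only without LD replicate 3 or PBS replicate 1, with adjusted p up to 0.184. With quantile normalization all 3 were lost (adjusted p = 0.0554 to 0.0794). None of 21 glycolytic enzymes, 13 pyruvate fate genes or 17 glycogen and fructose genes was called by limma or edgeR. Of these, 2, 4 and 10 had an unadjusted limma p under 0.05, as did 2933 of all 14900 genes tested. DESeq2 called 1, 1 and 2 of them, and 1222 of all genes tested. The median log2 change of the glycogen and fructose list was 0.24 and that of the regulators 0.19. Gckr, G6pc3 and Ppargc1a had log2 changes of 0.23, -0.25 and -0.17 (limma adjusted p = 0.125, 0.365 and 0.830).

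The nuclei place the 9 genes in cell types. The table gives mean UMIs per 10000 in 12 numbered groups, which markers identify as pericentral hepatocyte-like (group 0), periportal hepatocyte-like (1), stellate-like (2), macrophage-like (3), endothelial-like (4), neutrophil-like (5), T and NK cell-like (6), cholangiocyte-like (7), B or plasma cell-like (9), dendritic cell-like (10) and mesothelial-like (11), with group 8 left unnamed. Pck1 was left out of the periportal markers. The values have no replicates, so no test was possible and differences are described only.

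**Figure D4:**
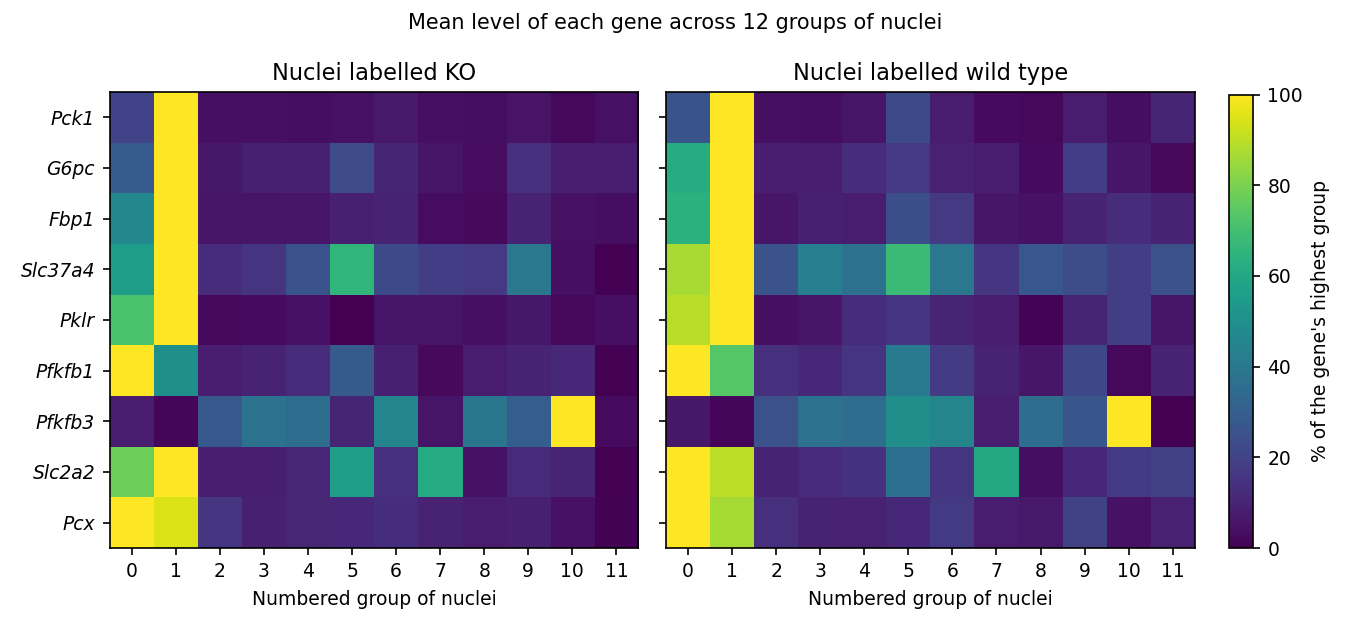
Mean level of each gene in the 12 groups of nuclei, as a percent of its highest group, in nuclei labelled KO (left) and wild type (right). Of the 9 genes, 8 are highest in hepatocyte groups 0 or 1, and Pfkfb3 is highest in dendritic cell-like group 10, with 3.36 UMIs per 10000 in nuclei labelled KO and 3.60 in nuclei labelled wild type.

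Among the 8 hepatocyte genes, Pck1 was the most periportal, with 6.77 UMIs per 10000 in group 1 and 1.37 in group 0 of the nuclei labelled KO, a ratio of 4.94. In nuclei labelled wild type it had 4.68 in group 1 and 1.22 in group 0, a ratio of 3.83. G6pc followed, with group 1 over group 0 ratios of 3.46 in nuclei labelled KO and 1.62 in nuclei labelled wild type, and Fbp1 with 2.13 and 1.57. The 8 hepatocyte markers summed leaned to group 1 as well, with ratios of 2.30 in nuclei labelled KO and 1.74 in nuclei labelled wild type. Pck1 exceeded the ratio of this sum in both libraries, G6pc in nuclei labelled KO only and Fbp1 in neither. The sum leans on Cps1, the marker with the highest mean over groups 0 and 1, whose ratios were the highest at 3.44 and 3.53. Apob had the lowest marker ratios, 1.22 and 1.11, and Fbp1 lay between Apob and Cps1 in both libraries. Pklr had ratios of 1.39 in nuclei labelled KO and 1.12 in nuclei labelled wild type, and Slc37a4 of 1.79 and 1.15. Pfkfb1 leaned the other way, with ratios of 0.499 in nuclei labelled KO and 0.736 in nuclei labelled wild type. Pcx was nearly even at 0.945 and 0.867, and Slc2a2 lay on either side of even at 1.28 and 0.902. Pfkfb3, low in all hepatocytes, had ratios of 0.163 and 0.261.

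Between genotypes, Pklr had the highest log2 ratio of the 9 genes in both hepatocyte groups. It was at 4.36 UMIs per 10000 in group 1 nuclei labelled KO and 1.37 in those labelled wild type, a log2 ratio of 1.67, and at 3.13 and 1.23 in group 0, a log2 ratio of 1.35. These ratios lay at percentiles 99.1 and 98.5 of 10955 genes. Outside hepatocytes, where its levels were low, Pklr was also higher in nuclei labelled KO in groups 2, 3, 4, 6, 7, 8, 9 and 11. It was lower there in groups 5 and 10. Slc37a4, the glucose 6-phosphate carrier, was at 0.780 in group 1 nuclei labelled KO and 0.281 in those labelled wild type (log2 ratio 1.47), and at 0.436 and 0.244 in group 0 (log2 ratio 0.83). At a log2 ratio of at least 1, 2 of 9 genes were higher in group 1, against 4.08% of all genes, 1 of 9 in group 0, against 3.74%, and 1 of 9 (Pklr) in both, against 2.43% of 10628 genes. Pklr and Slc37a4 had log2 changes of 0.66 and 0.53 in bulk libraries labelled LD over PBS, and of -0.45 and -0.15 in those labelled KO over wild type (-0.12 and -0.02 without wild type replicate 3). Ms4a7 was lower in the bulk libraries labelled LD and higher in those labelled KO, as given above. It is therefore uncertain which experiment each bulk comparison stands for, and in which direction. An exchange of the tables would keep these signs, and an exchange of groups within a table would turn them. None of the 9 was lower by as much in either group, against 3.78% of genes in group 1 and 1.73% in group 0.

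Pck1, G6pc and Fbp1 had higher levels in group 1 nuclei labelled KO than in those labelled wild type, with log2 ratios of 0.53, 0.74 and 0.57. For G6pc the values were 7.84 UMIs per 10000 in group 1 nuclei labelled KO and 4.70 in those labelled wild type, and for Fbp1 9.62 and 6.49. In group 0 the same 3 genes had log2 ratios of 0.17, -0.36 and 0.12, each below its ratio in group 1. Pcx had log2 ratios of -0.18 in group 1 and -0.30 in group 0, and Slc2a2 of 0.15 and -0.36. Pfkfb1 was at 0.827 in group 1 nuclei labelled KO and 1.07 in those labelled wild type, a log2 ratio of -0.37, and had a log2 ratio of 0.19 in group 0. Medians over all genes were -0.03 in group 1 and 0.02 in group 0.

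Markers of the groups moved as well. The 8 hepatocyte markers summed to 178 UMIs per 10000 in group 1 nuclei labelled KO and 96.8 in those labelled wild type, and to 77.3 and 55.7 in group 0, and their sum was higher in nuclei labelled KO in all 12 groups. The 6 periportal markers summed to 31.8 in group 1 nuclei labelled KO and 17.8 in those labelled wild type. The part of these shifts in the ratios of the 9 genes was not tested.

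**Figure D5:**
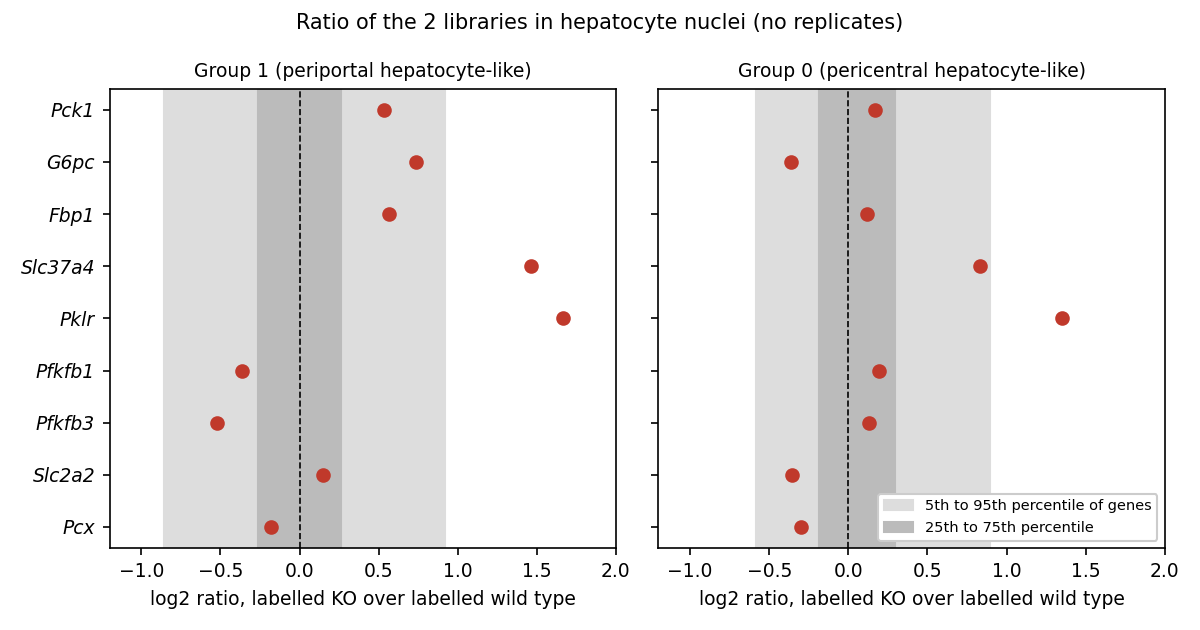
Log2 ratio of nuclei labelled KO to nuclei labelled wild type for the 9 genes (red points) in group 1 (left) and group 0 (right), with 1 library per genotype. Grey bands show percentiles of all genes above the level floor, and Pklr lies to the right of them in both groups, at 1.67 and 1.35.

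Outside hepatocytes, the 8 genes other than Pfkfb3 were low, with medians over the 10 other groups of 4.78% to 22.6% of the hepatocyte mean in nuclei labelled KO and 7.93% to 28.2% in nuclei labelled wild type. Hepatocyte markers were at 5.60% to 57.5% there in nuclei labelled KO and at 8.82% to 64.2% in nuclei labelled wild type. These ranges overlap. Some groups held more of a gene than of the summed hepatocyte markers. Slc2a2 in cholangiocyte-like group 7 was at 2.49 UMIs per 10000 in nuclei labelled KO and 2.44 in nuclei labelled wild type. Those values are 69.0% and 63.4% of the hepatocyte mean, where the summed hepatocyte markers reached 36.3% and 24.3%. Slc37a4 in neutrophil-like group 5 was at 84.6% of its hepatocyte mean in nuclei labelled KO and 72.8% in nuclei labelled wild type, where the markers were at 83.2% and 55.2%. In nuclei labelled wild type Slc37a4 also exceeded the summed markers in groups 2, 3, 4, 6, 8 and 11. It was at 40.4% against 26.9% in endothelial-like group 4. In nuclei labelled KO it exceeded the sum in group 8 alone besides group 5. Single markers stood on either side of Slc37a4, whose median over the 10 other groups was 28.2% in nuclei labelled wild type. There Alb, Apoa1 and Serpina1c had higher medians, at 42.3%, 52.9% and 64.2%, and the other markers lower ones. Slc37a4 was at 0.0448 to 0.191 UMIs per 10000 in those groups.

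Pfkfb3 had the opposite distribution. Its median over the 10 other groups was 731% of the hepatocyte mean in nuclei labelled KO and 869% in nuclei labelled wild type. After dendritic cell-like group 10, it was at 1.53 UMIs per 10000 in T and NK cell-like nuclei labelled KO and 1.64 in those labelled wild type. In macrophage-like group 3 it was at 1.25 in nuclei labelled KO and 1.36 in nuclei labelled wild type, and in endothelial-like group 4 at 1.19 and 1.29. Group 5, the neutrophil-like nuclei, differed most between the libraries among the groups where Pfkfb3 had a level above 0 in both, at 0.352 in nuclei labelled KO and 1.78 in nuclei labelled wild type. Ratios of all genes spread widely in that group, and this log2 ratio of -2.33 lay at percentile 31.8 of them.

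Of the 6 other lists, most genes above the level floor moved by less than 1 log2 unit in the hepatocyte nuclei. Among glycogen and fructose genes above the floor, 3 of 16 were higher by at least 1 in group 1, against 4.08% of all genes. They were Ppp1r3b, Ppp1r3c and Tkfc, with log2 ratios of 1.11, 1.06 and 1.25. The median of that list in group 1 was -0.14, and 0 of its 15 genes above the floor were past 1 in group 0. In group 1, Sds, the serine dehydratase that feeds amino acids into pyruvate, was at 7.74 UMIs per 10000 in nuclei labelled KO and 2.33 in nuclei labelled wild type (log2 ratio 1.73). Gapdh, a glycolytic enzyme, had a log2 ratio of 1.66 in group 1 and 1.42 in group 0. Got1, the cytosolic aspartate transaminase, had a log2 ratio of 1.31 in group 1. On the low side, Pdk4, the fasting-induced kinase that shuts off pyruvate dehydrogenase, had log2 ratios of -2.37 in group 1 and -1.07 in group 0. Its levels were low, at 0.0213 UMIs per 10000 in group 1 nuclei labelled KO and 0.121 in those labelled wild type. In group 0 they were 0.268 and 0.564. Aqp9, the glycerol channel, had a log2 ratio of -1.14 in group 1. Hk2 was at 0.0257 UMIs per 10000 in group 0 nuclei labelled KO and 0.162 in those labelled wild type, a log2 ratio of -2.55. It rose by 1.47 on the log2 scale in bulk libraries labelled KO. The bulk change covers all cell types of the liver and its label is in doubt, so these are unlike measures. Among regulators, Onecut1 was at 7.71 UMIs per 10000 in group 1 nuclei labelled KO and 3.33 in those labelled wild type, a log2 ratio of 1.21, whereas in bulk liver it fell in the libraries labelled KO, those in which Ms4a7 was higher. Cebpa, a hepatocyte transcription factor, had log2 ratios of 1.24 in group 1 and 1.08 in group 0, and Mlxipl of 0.34 in both groups.

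Over all 24 columns of nuclei, likeness of pattern was measured by Pearson r among the 2000 genes of highest mean level. Pck1 was closest to Hsd3b3 (r = 0.922) and Cps1 (0.917), G6pc was close to Bhmt (0.95), and Fbp1 was closest to Lipc (0.970) and Abcb11 (0.966). Slc37a4, Slc2a2 and Pfkfb1 shared Ugt2b5 and Abca8b as their closest genes (r from 0.868 to 0.939), and Pcx was closest to Abcb4 (0.937) and Fn1 (0.913). Pklr was closest to Plcxd2 (0.856) and Prpf4b (0.836), and Pfkfb3 to Trps1 (0.902) and Cbl (0.827). The columns share 2 libraries, so these r are descriptions.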

How the data were processed

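Liver RNA was measured in 12 bulk and 2 single-nucleus libraries. FastQC, STAR, DESeq2, Cell Ranger and Seurat 4.0.1, and build mm10, are named in the submitters' processing notes, and the read counter is not given in the sources used here. The bulk signal values were deposited by the authors as normalized counts, and 100% of values came out as whole reads within a tolerance of 0.01. Log2 fold changes and p-values in the authors' deposited tables come from DESeq2, per the same notes. The deposited nuclear signal is the authors' mean of UMIs per 10000 in each numbered group and genotype, and its depth is unknown.

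Bulk values of at least 10 in 3 of 6 libraries were tested per table with limma 3.58.1 (trend, 2-sided) in R 4.3.3, on log2 of the value plus 1, so changes of low genes are understated, Benjamini-Hochberg adjustment over all genes tested and calls at 0.05. edgeR 4.0.16 (quasi-likelihood) and DESeq2 1.42.0 on recovered reads, other pseudocounts (0.5 and 10), no filter, a mean of at least 50, quantile normalization, a replicate block and leaving out each library were alternatives. The limma step was tested on simulated data. Replicate pairs differed by a chi-square of 16.9 to 67.4 per degree of freedom, far above counting noise, and all were kept as separate libraries.

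Nuclear log2 ratios used a pseudocount of 0.00248 (percentile 5 of values above 0) for genes above percentile 50 of level. Treatment of doublets is not given in the sources used here. From the nuclear values 4 entries with a repeated name were left out. Exon lengths and positions come from GENCODE annotation of mm10. Named were all 9 genes, up to 6 called genes per list and comparison, Gckr, Pck2, G6pc3 and Ppargc1a, Ms4a7, 2 genes most alike in pattern, and, in nuclei, list genes chosen after their values were seen. The genes and lists were chosen with earlier results of these data known. Some genes of the lists and of the likeness search are not reported here.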

Additional observations from a re-analysis of the deposited data

Results flagged for a closer look

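In the nuclei, 4 of the 9 genes had log2 ratios of nuclei labelled KO to nuclei labelled wild type of opposite sign in the hepatocyte groups. G6pc had 0.736 in group 1 and -0.362 in group 0. Slc2a2 had 0.147 in group 1 and -0.357 in group 0. Pfkfb1 had -0.365 in group 1 and 0.193 in group 0, and Pfkfb3, low in both groups, had -0.522 in group 1 and 0.133 in group 0. The values above 0 of Slc2a2, Pfkfb1 and Pfkfb3 lay between percentiles 25 and 75 of all genes in their group. These percentiles were -0.265 and 0.265 in group 1 and -0.184 and 0.296 in group 0. The other values lay outside them. The share of all genes with opposite signs in the 2 groups is not given here. The difference between the groups was not tested, since each genotype has 1 library.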

How the results depend on the processing

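With 3 libraries a group, single libraries decide most calls. In libraries labelled KO the 589 genes called became 1241 with DESeq2 and 124 to 530 without 1 library, and the 2 of 9 glucose genes became 0 to 1 without 1 library. In libraries labelled LD the 620 genes called became 1222 with DESeq2 and 134 to 1226 without 1 library, and the 1 of 9 became 2 with DESeq2 (Slc37a4 and Pklr), 2 without the filter, 0 with quantile normalization and 0 to 2 without 1 library. The replicate numbers do not pair the samples (correlations of same-numbered libraries 0.12, -0.03 and -0.02 in the NASH table and 0.05, -0.04 and 0.13 in the injection table), and not every library correlated best with its own number. With the number as a block 822 and 793 genes were called, and 1 (Pck1) and 3 (G6pc, Slc37a4 and Pklr) of the 9.

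Signs that turned belonged to genes that were not called. In libraries labelled KO, Fbp1 had 0.0237 with quantile normalization. Without 1 library, log2 changes there ran from -0.118 to 0.0418 for Fbp1 (above 0 without KO or wild type replicate 3), from -0.298 to 0.0139 for Pfkfb1 (KO replicate 3) and from -0.40 to 0.0227 for Pck2 (wild type replicate 2). In libraries labelled LD, quantile normalization gave Fbp1 -0.0721, Slc2a2 -0.0745, Pcx -0.142 and Pfkfb3 0.0240. Without 1 library, Pfkfb3 ran from -0.204 to 0.214 (above 0 without LD replicate 2, PBS replicate 2 or PBS replicate 3) and Ppargc1a from -0.473 to 0.165 (LD replicate 2 or PBS replicate 3). The cause was not tested. In the nuclei, Pfkfb3 in group 1 had -0.323 with a pseudocount at percentile 25, and the other 53 alternative values lay within 0.1 of those reported.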
